A study of Homo sapiens with 16 samples.

Results

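A set of 34 interferon response genes was followed through Caco-2 cells, a human colon carcinoma line that grows as an epithelium, after 6 h with gliadin preparations or with the enzymes used to make them. Each gene was found by its name on the array and represented by the brightest of its probes, by mean log2 intensity over all arrays. The array named 30971 genes, and 40982 probes were tested. All cultures were undifferentiated Caco-2 cells in medium with little serum, and 4 cultures received nothing else (MED-CTL). The others received the synthetic gliadin peptide p31-43 at 150 µg/ml, gliadin digested by pepsin and then trypsin (PT-G), or the same digestion mixture prepared without gliadin (PT), with 4 cultures each. The enzymes of PT and PT-G had been inactivated by heat. No interferon was added to any culture, and a single carcinoma line stands here for the intestinal epithelium.

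Interferons are secreted proteins that alert cells to infection. Type I and type III interferons act through receptors coupled to the kinases JAK1 and TYK2, which activate STAT2. STAT2 and IRF9, the latter listed on the array under its older name ISGF3G, are parts of the factor ISGF3, which binds the interferon-stimulated response element (ISRE) in the promoters of target genes. Interferon gamma acts mainly through the GAS element. In the intestine, epithelial cells respond to type III interferon in particular, and interferons have long been discussed in celiac disease, the enteropathy that gliadin triggers.

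Promoter sequences are shown for the members whose probe passed the test of the enzyme mixtures and had a promoter entry, and for IFIT1 and IFIT3, neighbours of IFIT5 in the same gene family that did not pass. They are RefSeq sequences (GRCh38.p14), 5′ to 3′ on the strand of the gene, from 200 bases before to 10 after the annotated transcription start. Capitals mark each match to the ISRE core (GAAA, then 2 bases of any kind, then GAAA), read on either strand, with overlapping matches counted separately.
IFIT5 (chr10:89414368-89414577, plus strand): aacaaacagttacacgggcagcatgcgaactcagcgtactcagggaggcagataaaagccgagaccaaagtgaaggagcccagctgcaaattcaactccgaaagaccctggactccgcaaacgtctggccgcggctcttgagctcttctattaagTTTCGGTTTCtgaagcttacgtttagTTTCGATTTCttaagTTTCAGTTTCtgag
ISG20 (chr15:88638816-88639025, plus strand): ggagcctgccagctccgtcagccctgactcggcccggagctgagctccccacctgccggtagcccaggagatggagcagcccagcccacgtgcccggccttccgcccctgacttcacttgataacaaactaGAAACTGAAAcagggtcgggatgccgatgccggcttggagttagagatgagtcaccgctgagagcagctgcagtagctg
IFI27 (chr14:94110536-94110745, plus strand): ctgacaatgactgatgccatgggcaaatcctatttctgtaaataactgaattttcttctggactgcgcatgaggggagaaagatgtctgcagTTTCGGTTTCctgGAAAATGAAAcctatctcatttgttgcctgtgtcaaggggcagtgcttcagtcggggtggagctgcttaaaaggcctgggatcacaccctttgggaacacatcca
IFIT1 (chr10:89392423-89392632, plus strand): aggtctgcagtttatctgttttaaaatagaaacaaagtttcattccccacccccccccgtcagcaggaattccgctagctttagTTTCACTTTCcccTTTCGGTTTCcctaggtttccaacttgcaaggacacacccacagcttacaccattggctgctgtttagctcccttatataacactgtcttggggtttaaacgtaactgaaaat
IFIT3 (chr10:89327797-89328006, plus strand): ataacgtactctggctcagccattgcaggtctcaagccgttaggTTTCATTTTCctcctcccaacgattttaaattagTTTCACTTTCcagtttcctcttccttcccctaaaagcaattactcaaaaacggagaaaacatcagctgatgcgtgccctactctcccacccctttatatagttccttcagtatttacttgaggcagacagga
The IFIT5 window held matches that began 45, 19 and 4 bases before the start. The single match of ISG20 began 69 bases before it, those of IFIT1 116 and 103 bases, and those of IFIT3 156 and 122 bases. A match to these letters is a description of the sequence and not a site shown to be bound.

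Promoter entries were matched for 25 of the 34 members. The ISRE core was present between 250 bases before and 50 after the start in 17 of these 25 (68%), against 3.57% of all 35116 promoters in the table. The GAS letters, TTCNNNGAA, were present in 6 of 25 members (24%) and in 7.66% of all promoters.

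The arrays differed somewhat in signal and detection. The median signal of a spot ranged from 139 to 369.5 over a median local background of 48 to 65, and 27983 to 34405 spots per array were well above background. The epithelial markers KRT8, KRT18, KRT19, TACSTD1 (the older name of EPCAM), CDH1, CDX2 and VIL1 were well above background on all 16 arrays. Of the blood cell markers, PTPRC was on none, whereas CD14, CD3E, CD68 and LYZ were on all 16. The summed linear intensity of these 5 markers lay between 1698 and 3085 on MED-CTL arrays, 1923 and 2292 on p31-43 arrays, 1882 and 2603 on PT arrays and 1875 and 2517 on PT-G arrays. The arrays lay on 5 slides and formed 4 runs, a run being the arrays whose files carry the same date mark, with 1 array of each condition. Replicate numbers are those of the labels. MED-CTL replicate 1 lay in run 2 and MED-CTL replicate 2 in run 1, while all other arrays had the same replicate and run number.

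Most of the genes were expressed above background in untreated cells as well as in treated ones. Of the 34 members, 23 were well above background on every array, 7 on some and 4 on none. Those on none were IFI44 and IFI44L, antiviral proteins of one family, OAS2, a synthetase of oligoadenylates, and TRIM22, an antiviral ubiquitin ligase. The 7 in between were SP110, a nuclear body protein (2 arrays), the GTPases GBP2 (9 arrays), GBP1 (15 arrays) and MX2 (14 arrays), the chemokine CXCL10 (12 arrays), OASL, a synthetase-like protein (14 arrays), and TAP2, a peptide transporter subunit (15 arrays). Values of these 11 genes lay close to the background, where quantile-normalized intensities move little, and they are given below only with that limit.

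Few members changed with the pepsin/trypsin mixtures, and IFIT5, an RNA-binding antiviral protein, changed most. With a nominal p under 0.01 as the threshold, 3 members rose under PT and none fell, against 3.64% of all probes in either direction and 1.8% higher. Under PT-G 1 member rose and none fell, against 3.44% of all probes and 1.91% higher. With PT and PT-G pooled against MED-CTL and p31-43, 4 members rose and none fell, against 6.46% of all probes and 3.04% higher. The median log2 change over the 34 members was 0.00 under PT, −0.02 under PT-G and 0.00 for both mixtures together, and over all probes it was −0.01, −0.006 and −0.003. PT and PT-G were compared with the same MED-CTL arrays, so their values are given side by side and their likeness is not a separate result. RNA of whole cultures was measured, in which fewer cells expressing a gene and less RNA per cell cannot be told apart.

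**Figure D1:**
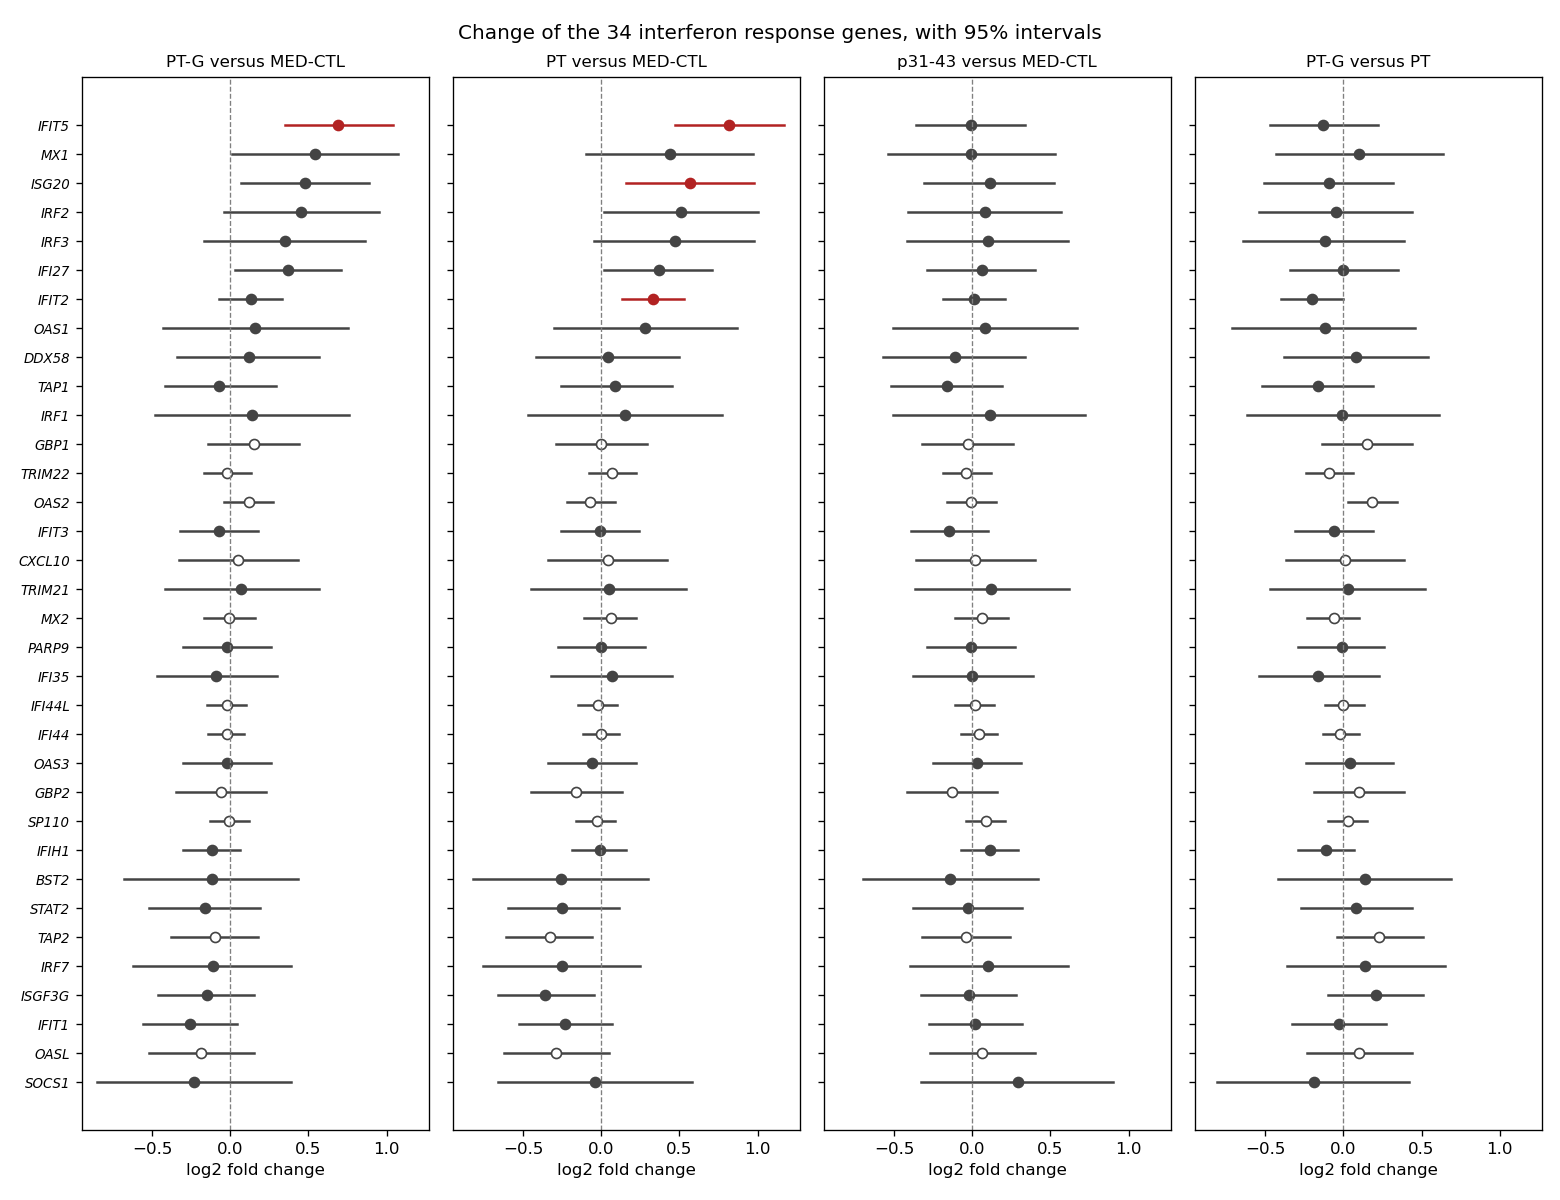
Log2 fold change (horizontal axes) of the 34 genes in 4 comparisons, with 95% intervals from the model of all 16 arrays. Red marks a nominal p under 0.01, and open circles mark genes not well above background on all 16 arrays. IFIT5 lies at 0.69 under PT-G and 0.82 under PT, and no gene is marked for p31-43 or for PT-G against PT.

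IFIT5 belongs to the IFIT proteins, which bind viral RNA and are induced by interferon through the ISRE. Its log2 intensity on the MED-CTL arrays was 8.22, 8.04, 8.63 and 7.67 in replicates 1 to 4. On the p31-43 arrays it was 8.12, 8.24, 8.23 and 7.96, on the PT arrays 8.81, 9.11, 8.96 and 8.97, and on the PT-G arrays 8.73, 8.75, 9.12 and 8.75. Every array with the enzyme mixture thus lay above every array without it, and IFIT5 was the one member to keep these groups of 8 arrays apart, against 1.44% of all probes. The mean rose from 8.14 ± 0.40 (SD, n = 4) in MED-CTL to 8.96 ± 0.12 under PT, a log2 change of 0.82 (SE 0.16, limma, adjusted p = 0.0313), or 1.77-fold. Under PT-G it was 8.84 ± 0.19, a log2 change of 0.69 (SE 0.16, limma, adjusted p = 0.069). Both mixtures together gave 0.76 (SE 0.11, limma, adjusted p = 0.00157), whereas p31-43 differed from MED-CTL by −0.01 (95% interval −0.36 to 0.34).

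The rise of IFIT5 was present in each run and on a second probe. Within runs 1 to 4 the PT array exceeded the MED-CTL array by 0.77, 0.89, 0.32 and 1.30 on the log2 scale, and the PT-G array exceeded it by 0.69, 0.52, 0.48 and 1.08. The smallest difference under PT fell in run 3, where the MED-CTL array was the highest of its group. The other IFIT5 probe, also well above background on all 16 arrays, gave 0.82 under PT (limma, adjusted p = 0.00824) and 0.69 under PT-G (limma, adjusted p = 0.0195). Across the alternative settings the change stayed between 0.66 and 0.98 under PT and between 0.54 and 0.86 under PT-G, with a nominal p under 0.01 in each of the 29 settings tried. With the run as a block in the limma model the adjusted p was 0.00304 under PT and 0.00736 under PT-G.

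The other IFIT genes moved less than IFIT5 or did not pass. IFIT2 was 7.89, 7.78, 7.88 and 7.46 on the MED-CTL arrays, 7.96, 7.74, 7.61 and 7.73 on the p31-43 arrays, 8.15, 8.09, 8.07 and 8.03 on the PT arrays and 7.91, 7.88, 7.92 and 7.82 on the PT-G arrays. All 4 PT arrays lay above all arrays of the other conditions, while the PT-G arrays overlapped MED-CTL. IFIT2 rose under PT by 0.33 (SE 0.09, limma, adjusted p = 0.161), and the PT-G difference from MED-CTL was 0.13 (95% interval −0.07 to 0.33). Both mixtures together gave 0.23 (SE 0.07, limma, adjusted p = 0.0898). A second IFIT2 probe, well above background on 1 array only, differed by 0.00 under PT, and with the mean of both probes in place of the brighter one the PT change was 0.17 and no longer passed.

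IFIT1, the founding member of the family, was 7.60, 7.49, 8.23 and 7.61 on the MED-CTL arrays and 7.59, 7.76, 7.80 and 7.84 on the p31-43 arrays. Under PT it was 7.61, 7.29, 7.49 and 7.63, and under PT-G 7.50, 7.54, 7.54 and 7.30, so the groups overlapped. The difference for both mixtures together was −0.25 (SE 0.10, limma, adjusted p = 0.249), opposite in sign to that of IFIT5. IFIT3 differed by −0.01 under PT (95% interval −0.26 to 0.24), by −0.07 under PT-G (−0.32 to 0.18) and by 0.03 for both together. With one member of the family higher by 0.76 and its neighbours between −0.25 and 0.23, the 4 genes shared no common shift.

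**Figure D2:**
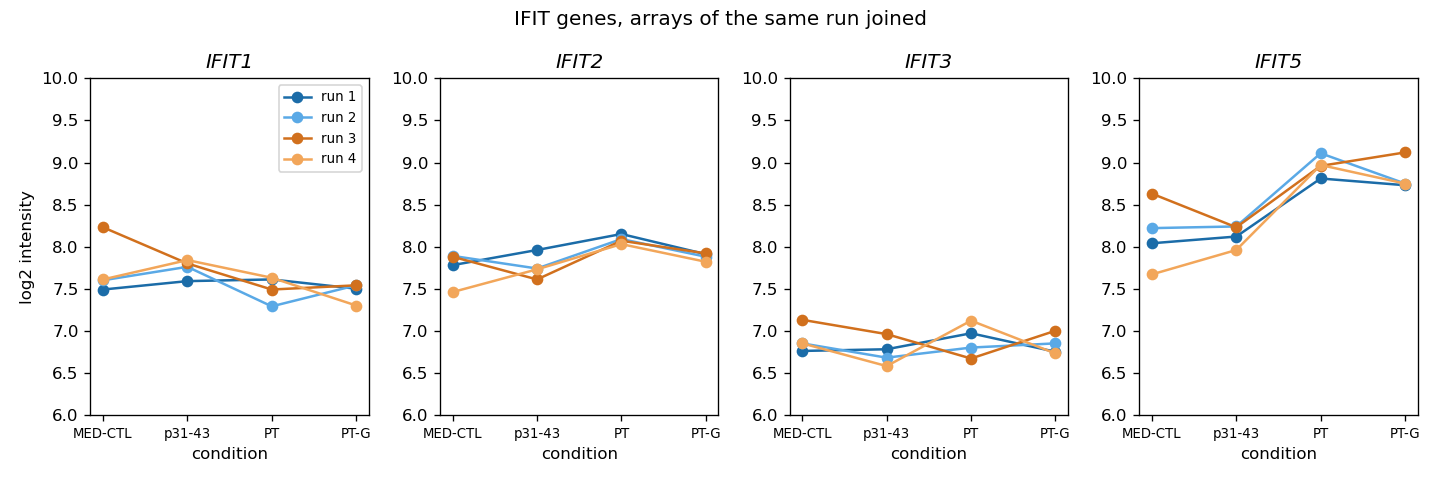
Log2 intensity of the 4 IFIT genes (vertical axis) in the 4 conditions (horizontal axis), with 1 point per array and lines joining the arrays of a run. On each line of IFIT5 the PT point lies above the MED-CTL point, by 0.32 to 1.30, while the lines of IFIT1 and IFIT3 cross.

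In the group of oligoadenylate synthetases and the nuclease ISG20, ISG20 was the member that passed. ISG20 is an exonuclease for single-stranded RNA. Its log2 intensity was 12.84, 12.71, 12.21 and 12.42 on the MED-CTL arrays, 12.73, 13.03, 12.24 and 12.60 on the p31-43 arrays, 12.94, 13.38, 12.96 and 13.18 on the PT arrays and 13.07, 13.31, 12.59 and 13.12 on the PT-G arrays. The PT arrays did not overlap MED-CTL, and 1 PT-G array, replicate 3, lay among the MED-CTL values. ISG20 rose under PT by 0.57 (SE 0.19, limma, adjusted p = 0.273), and the PT-G difference was 0.48 (SE 0.19, limma, adjusted p = 0.477). For both together the rise was 0.47 (SE 0.14, limma, adjusted p = 0.082). The PT value lay just inside the threshold and lost it in 16 of 29 alternative settings, whereas the value for both together passed in all 28 settings tried.

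ISG20 was higher with either mixture in each run. Within runs 1 to 4 the PT array exceeded the MED-CTL array by 0.23, 0.55, 0.75 and 0.76, and the PT-G array exceeded it by 0.36, 0.47, 0.37 and 0.70. Blocking on the run gave limma adjusted p-values of 0.0039 for PT and 0.0104 for PT-G. With the replicate number as a block, the PT-G change was 0.48 (SE 0.11, limma, adjusted p = 0.0301). That block joins MED-CTL replicates 1 and 2 to PT-G arrays of another run.

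The synthetases themselves gave no call under either mixture in the model without blocks. OAS1 differed by 0.28 under PT and 0.16 under PT-G, and its PT difference passed with the run as a block (SE 0.08, limma, adjusted p = 0.0597). OAS3 differed by −0.06 and −0.02. OASL, which lacks synthetase activity, was 6.85, 6.64, 6.66 and 6.62 on the MED-CTL arrays and 6.48, 6.42, 6.48 and 6.24 on the PT arrays. These groups did not overlap, but the difference of −0.29 did not pass (SE 0.16, limma, adjusted p = 0.666) and the levels were near background. With the slide as a block it was lower by −0.38 and passed (SE 0.10, limma, adjusted p = 0.0545). In all, 7 of the 34 members did not overlap between PT and MED-CTL, against 5.08% of all probes, and 2 between PT-G and MED-CTL, against 3.87%. The 7 were IFIT5, IFIT2, ISG20, IFI27, IRF2 and IRF3, which were higher under PT, and OASL, and the 2 were IFIT5 and IRF2.

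IFI27, a small interferon-induced protein of mitochondria and the nuclear envelope, was the last member called. On the MED-CTL arrays it was 8.35, 8.03, 8.20 and 8.24, on the p31-43 arrays 8.11, 8.51, 7.85 and 8.58, on the PT arrays 8.41, 8.66, 8.49 and 8.73 and on the PT-G arrays 8.50, 8.68, 8.26 and 8.86. The p31-43 arrays spread from below the lowest MED-CTL array to above the highest. IFI27 rose with both mixtures together by 0.34 (SE 0.11, limma, adjusted p = 0.151), with differences of 0.37 under PT and 0.37 under PT-G that did not pass on their own. Its second probe gave 0.35 (limma, adjusted p = 0.288). The call was lost in 16 of 28 alternative settings, and within runs 1 to 4 the mean of the mixtures exceeded that of the arrays without it by 0.39, 0.24, 0.35 and 0.38. Of its relatives, IFI35 differed by 0.07 under PT and −0.09 under PT-G, and IFI44 and IFI44L were not well above background.

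Within the runs, the 4 genes called kept their direction. On the arrays of slides 1 and 2 the difference for both mixtures together was 0.69 for IFIT5, 0.16 for IFIT2, 0.35 for ISG20 and 0.31 for IFI27. On slides 3 to 5 it was 0.83, 0.29, 0.59 and 0.37, respectively. Slide 5 held 1 PT array of run 3 and 1 p31-43 array of run 4, so its difference was between runs. It gave 1.00 for IFIT5 and −0.09 for IFI27.

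**Figure D3:**
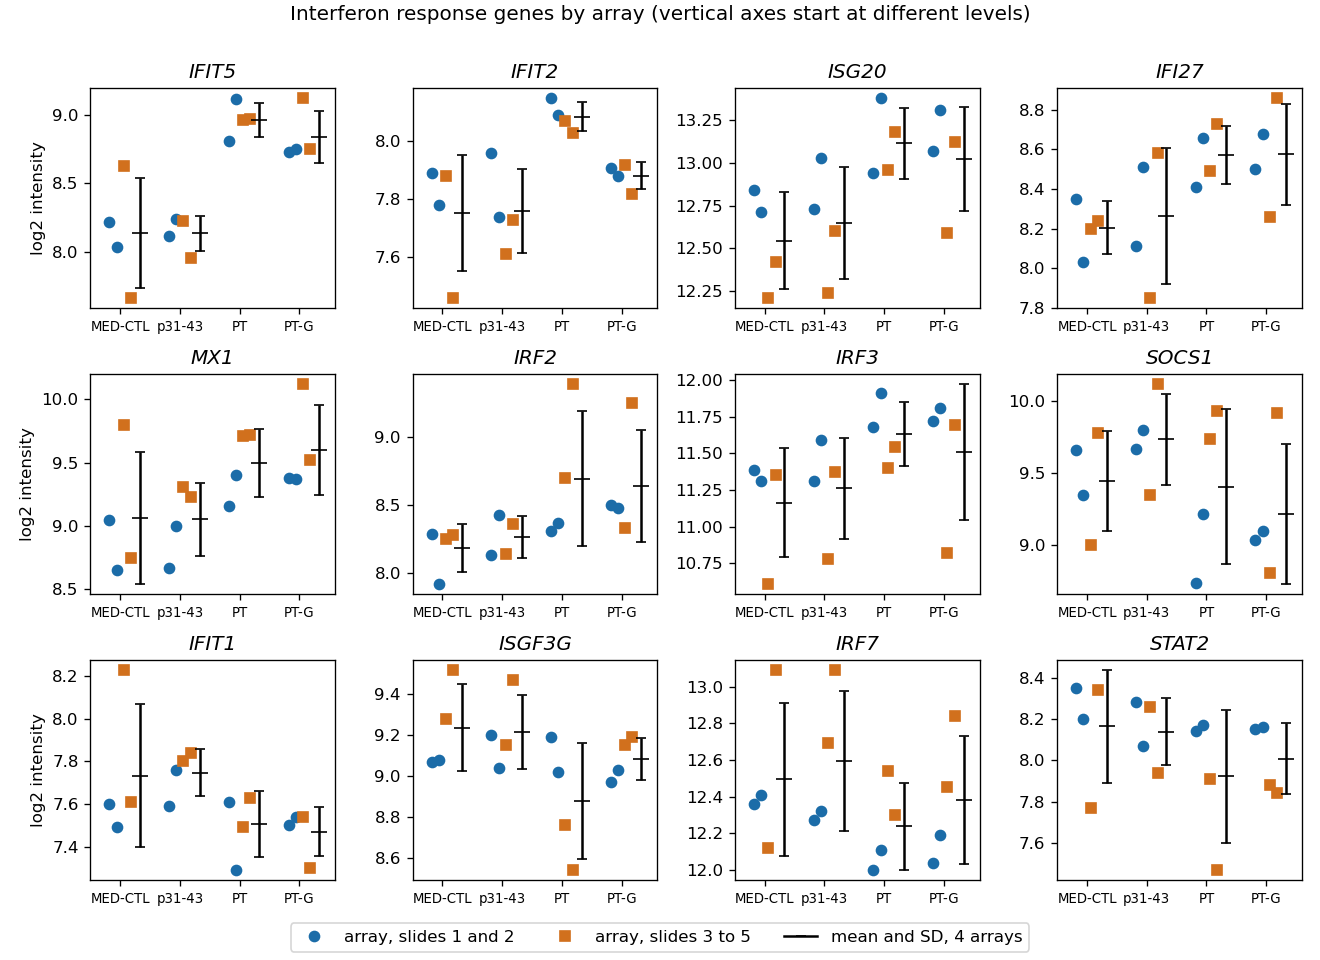
Log2 intensity (vertical axes, which start at different levels) of 12 genes on each array in the 4 conditions (horizontal axes), with the mean and SD of 4 arrays. Blue circles are arrays of slides 1 and 2, and orange squares are arrays of slides 3 to 5. The PT and PT-G arrays of IFIT5 lie between 8.73 and 9.12, above all others.

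None of the 6 transcription factors passed in the model without blocks, whereas IRF3 and IRF2 passed for both mixtures together once the run was a block. IRF3, which is present in resting cells and activated by phosphorylation, was 11.39, 11.31, 10.61 and 11.35 in MED-CTL, 11.31, 11.59, 10.78 and 11.37 under p31-43, 11.68, 11.91, 11.40 and 11.54 under PT and 11.72, 11.81, 10.82 and 11.69 under PT-G. Its difference for both mixtures was 0.36 (SE 0.17, limma, adjusted p = 0.402), and within runs 1 to 4 this was 0.40, 0.37, 0.41 and 0.26. The within-run differences lay closer together than the levels of its arrays, and with the run as a block the same difference had an SE of 0.07 (limma, adjusted p = 0.00537). IRF2, mainly a repressor of the same targets, was 8.29, 7.92, 8.25 and 8.28 in MED-CTL, 8.13, 8.43, 8.14 and 8.36 under p31-43, 8.31, 8.37, 8.70 and 9.39 under PT and 8.50, 8.48, 8.33 and 9.25 under PT-G. All arrays with the mixture lay above all MED-CTL arrays but not above all p31-43 arrays. IRF2 differed by 0.44 (SE 0.16, limma, adjusted p = 0.209), but its second probe, well above background on 15 arrays, differed by 0.10. Under PT the second probe differed by −0.10, against 0.51 for the brighter one, and under PT-G by 0.18, against 0.45. With the run as a block the brighter IRF2 probe had an SE of 0.12 (limma, adjusted p = 0.0286). IRF1, an early activator, differed by 0.09 (95% interval −0.35 to 0.53).

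The components of ISGF3 and IRF7 had lower means under both mixtures without passing in the model without blocks. STAT2 was 8.35, 8.20, 7.77 and 8.34 in MED-CTL, 8.28, 8.07, 8.26 and 7.94 under p31-43, 8.14, 8.17, 7.91 and 7.47 under PT and 8.15, 8.16, 7.88 and 7.84 under PT-G. Its groups overlapped, and both mixtures differed by −0.19 (95% interval −0.44 to 0.06). ISGF3G was 9.07, 9.08, 9.28 and 9.52 in MED-CTL, 9.20, 9.04, 9.15 and 9.47 under p31-43, 9.19, 9.02, 8.76 and 8.54 under PT and 8.97, 9.03, 9.15 and 9.19 under PT-G. The lowest values were 2 PT arrays, and both mixtures differed by −0.24 (−0.46 to −0.03, limma, adjusted p = 0.292).

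IRF7, the factor that amplifies the type I response, was 12.36, 12.41, 12.12 and 13.09 in MED-CTL and 12.27, 12.32, 12.69 and 13.09 under p31-43. It was 12, 12.11, 12.54 and 12.30 under PT and 12.04, 12.19, 12.45 and 12.84 under PT-G, and the groups overlapped. Both mixtures differed by −0.23 (−0.59 to 0.12). With the slide as a block the difference was −0.29 and passed (SE 0.09, limma, adjusted p = 0.059).

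MX1, a dynamin-like GTPase that traps viral particles and a common readout of type I and type III interferon, was 9.05, 8.65, 9.80 and 8.75 in MED-CTL and 8.67, 9.00, 9.31 and 9.23 under p31-43. It was 9.16, 9.40, 9.71 and 9.72 under PT and 9.38, 9.37, 10.12 and 9.52 under PT-G. The highest MED-CTL array exceeded 7 of the 8 arrays with the mixture, and the difference of 0.49 did not pass (SE 0.18, limma, adjusted p = 0.193). MX1 passed once the run was a block in the model, with the same difference and an SE of 0.10 (limma, adjusted p = 0.0066). MX2, GBP1 and GBP2, the other GTPases, differed by 0.00, 0.09 and −0.05, and GBP1, near background, passed at 0.16 with the slide as a block (limma, adjusted p = 0.0181).

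With batches in the model more members were called and IFIT5 kept its place. For PT-G against MED-CTL, 4 members passed with the replicate number as a block (IFIT5, ISG20, MX1 and IRF3), although replicates 1 and 2 of MED-CTL are then joined across runs. With run or slide as a block 5 passed, IFI27 being added in both. The share of all probes was then 7.59% for the replicate number, 9.16% for the run and 12.2% for the slide. For PT against MED-CTL, 7 passed with the run as a block, against 10.3% of all probes, and 7 with the slide, against 10.6%. For both mixtures together, 7 passed with the replicate number (12.5% of all probes), 9 with the run (14.3%) and 12 with the slide (16.5%). OASL, IRF7 and SOCS1 were the genes called lower in those fits, and each of the others was higher. The slide as a block joins a PT and a p31-43 array of different runs on slide 5.

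The remaining groups gave no call in the model without blocks. SOCS1, the feedback inhibitor of JAK kinases, was 9.66, 9.35, 9.00 and 9.78 in MED-CTL, 9.67, 9.80, 9.35 and 10.12 under p31-43, 8.74, 9.22, 9.74 and 9.93 under PT and 9.04, 9.10, 8.81 and 9.92 under PT-G. The arrays of every condition overlapped. SOCS1 differed by −0.28 for both mixtures (95% interval −0.71 to 0.16) and, with the slide as a block, passed at −0.41 (SE 0.08, limma, adjusted p = 0.00768). Its second probe, also well above background on all 16 arrays, differed by −0.20 in the model without blocks. CXCL10, a chemokine for T cells, differed by 0.03 (−0.23 to 0.30). DDX58 (RIG-I) and IFIH1 (MDA5), sensors of viral RNA, differed by 0.14 and −0.12. TAP1 and TAP2, which carry peptides to class I molecules, differed by 0.09 and −0.20. TRIM21, an antibody receptor and ubiquitin ligase, the tether BST2, PARP9 and SP110 differed by 0.00, −0.12, −0.01 and −0.06. Of these genes, TAP2 had the smallest p, with −0.33 under PT (SE 0.13, limma, adjusted p = 0.405). With the background-subtracted signal TAP2, near background on these arrays, was lower by −0.71 under PT and passed (SE 0.22, limma, adjusted p = 0.293).

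No member passed for p31-43. None of the 34 had a nominal p under 0.01 or under 0.05 against MED-CTL in limma, where 0.388% of all probes passed at 0.01 and 2.15% at 0.05. Over the 34 genes the differences ran from −0.16 to 0.29, with a median of 0.02. For all 23 genes well above background on every array the 95% interval lay within −0.70 and 0.90, so that a change of 2-fold lay outside each of them. The widest was that of SOCS1, at 0.29 (−0.33 to 0.90). None of the 34 genes kept p31-43 and MED-CTL arrays apart, against 1.39% of all probes. The count was 0 in all 29 alternative settings.

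Gliadin in the digest gave no call either. Between PT-G and PT, no member had a nominal p under 0.01 in limma and 1 had one under 0.05, where 0.0903% of all probes passed at 0.01 and 0.781% at 0.05. That one was OAS2, at 0.18 and not above background. The intervals of the 23 genes well above background on every array lay between −0.81 and 0.69. IFIT5 differed by −0.13 (95% interval −0.47 to 0.22), ISG20 by −0.09 (−0.51 to 0.32) and IFI27 by 0.00 (−0.34 to 0.35). IFIT2 was the one member whose PT-G and PT arrays did not overlap, against 0.632% of all probes, with PT-G lower by −0.20 (−0.40 to 0.00, limma, adjusted p = 1). On this probe the PT-G array was lower than the PT array in each of the 4 runs, by −0.24, −0.21, −0.15 and −0.21. The second IFIT2 probe, well above background on 1 array only, differed by 0.16, in the opposite direction.

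Between the slide sets, members were called at about the share of all probes. Slides 1 and 2 and slides 3 to 5 carried 8 arrays each, 2 of every condition, and culture, hybridisation and scan cannot be told apart between these sets. With condition in the model, 8 members passed between the sets, 2 higher and 6 lower on slides 3 to 5, against 24.2% of all probes, 12.4% higher and 11.8% lower. Of the 5 members grouped as oligoadenylate synthetases and nuclease 4 were lower, of which ISG20 and OASL lost the call with a block. None of the 4 IFIT genes passed.

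IRF1 ranged from 8.98 to 9.36 on slides 1 and 2 (median 9.15) and from 8.13 to 8.81 on slides 3 to 5 (median 8.43), a difference of −0.67 (SE 0.10, limma, adjusted p = 0.000273). TRIM21 ranged from 8.15 to 8.38 (median 8.28) and from 7.46 to 7.91 (median 7.74), a difference of −0.56 (SE 0.07, limma, adjusted p = 7.59e-05). OAS3 ranged from 9.14 to 9.46 (median 9.27) and from 8.90 to 9.10 (median 8.97), a difference of −0.28 (SE 0.05, limma, adjusted p = 0.00155). These 3 genes did not overlap between the sets, against 6.27% of all probes. OAS1 ranged from 8.52 to 9.10 and from 7.98 to 8.60, a difference of −0.63 (SE 0.10, limma, adjusted p = 0.000422). The 4 genes kept a nominal p under 0.01 when the slide, the run or the replicate number was a random block. Such a block allows for a correlation, common to all probes, among arrays of a block. The sets are made of whole runs and the tests counted arrays, so p-values between the sets do not measure the spread between runs. The share of all probes was then 11.4% with the slide, 13.7% with the run and 16.9% with the replicate number.

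The other 4 calls between the sets did not survive such a block. ISG20 differed by −0.33, OASL by −0.26, MX1 by 0.44 and IRF7 by 0.43. The second IRF7 probe, well above background on 15 arrays, differed by −0.30, so the direction for IRF7 is unsettled. IFIT5 differed by 0.03 between the sets (95% interval −0.22 to 0.29).

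**Figure D4:**
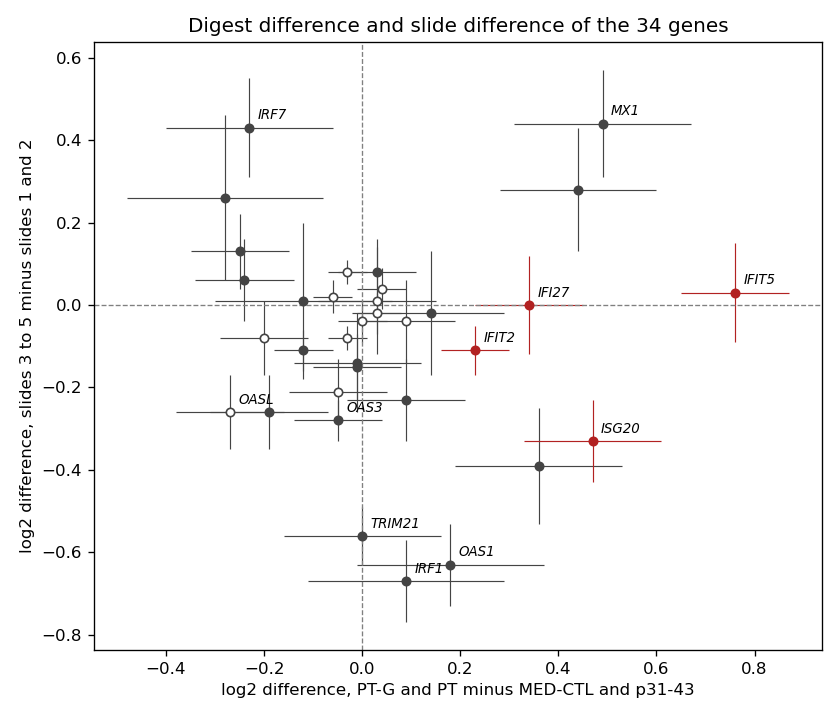
Log2 difference of the 34 genes between arrays with and without the pepsin/trypsin mixture (horizontal axis) and between slides 3 to 5 and slides 1 and 2 (vertical axis), with standard errors. Red marks a nominal p under 0.01 for the mixture, and open circles mark genes not well above background on all 16 arrays. IFIT5 lies at 0.76 and 0.03, and IRF1 at 0.09 and −0.67.

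The response to the mixtures was not shown to differ between the slide sets. No member passed for this interaction in limma, where 0.183% of all probes passed, and 1 had a nominal p under 0.05, against 1.6% of all probes. That was ISGF3G, with −0.40 (SE 0.18, limma, adjusted p = 1). The largest difference between the sets was that of SOCS1, at 0.63 (95% interval −0.17 to 1.43), with −0.59 for the mixtures on slides 1 and 2 and 0.04 on slides 3 to 5. The second SOCS1 probe, also well above background on all 16 arrays, gave 0.15 for this difference. SOCS1 was also the one member to pass with the slide as a block, at 0.40 (SE 0.12, limma, adjusted p = 0.923), against 0.939% of all probes. For IFIT5 the difference between the sets was 0.13 (95% interval −0.39 to 0.66), for ISG20 0.25 (−0.20 to 0.69) and for IFIT2 0.13 (−0.13 to 0.39). The widest interval was that of BST2, from −1.20 to 0.44, so differences of over 2-fold were not outside it.

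Genes around the pathway gave little more. Of 16 interferon genes measured, 7 were well above background on no array and 2, IFNA4 and IL28A, on all 16. None of the 16 had a nominal p under 0.01 in limma in any comparison of treatments, and 1 had one under 0.05 for p31-43 and 0 for PT, PT-G or both together. Among 9 receptors and kinases 1 rose with both mixtures together and none fell, which was IL28RA, a subunit of the type III interferon receptor, at 0.58 (SE 0.15, limma, adjusted p = 0.0473). Among 10 genes of sensing and signalling, TICAM1, the adaptor of TLR3, rose by 0.46 (SE 0.11, limma, adjusted p = 0.0311). With both mixtures together 6.46% of all probes passed, and 3.04% passed and were higher. None of 5 negative regulators passed.

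Of 41 further interferon-stimulated genes, none rose and 2 fell with both mixtures together, against 6.46% of all probes. None was called under PT, 1 fell under PT-G, and 1 rose under p31-43, against 3.64%, 3.44% and 0.388% of all probes called. The gene that rose was TRIM14, an adaptor of antiviral signalling, at 0.43 (SE 0.11, limma, adjusted p = 1), and it lost the call with the background-subtracted signal (0.42) and with the mean of its probes (0.24). WARS, a tryptophanyl-tRNA synthetase induced by interferon gamma, fell by 0.30 on the log2 scale (SE 0.07, limma, adjusted p = 0.02). DTX3L, the ubiquitin ligase that pairs with PARP9, fell by 0.45 on the log2 scale (SE 0.12, limma, adjusted p = 0.0503), while PARP9 itself differed by −0.01. ISG15, a ubiquitin-like protein and a strong target of type I interferon, differed by 0.68 under PT (SE 0.28, limma, adjusted p = 0.465), 0.49 under PT-G and 0.46 under p31-43, none of which passed. The median change of the 41 genes was −0.01.

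Of the 17 members whose promoter held the ISRE core, 3 passed for both mixtures together, and of the 8 members whose promoter entry lacked it 0 passed, against 6.46% of all probes. For the GAS letters it was 1 of 6 members with a match and 2 of 19 without. Whether members with and without a match differ was not tested. The members without a call included IFIH1, with 3 matches, and IFIT1, IFIT3, TAP1 and BST2, with 2 each.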

How the data were processed

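RNA of 16 Caco-2 cultures, 4 per condition, was hybridised to single-colour Agilent arrays. The deposited files of each array hold spot intensity on a linear scale (foreground median and mean, local background, processed signal) as given by the image analysis, without normalization between arrays. The authors also deposited log2 values, which the quantile-normalized median foreground intensity over all spots matched within 5e-09. Signal over local background stands for depth, and precision is limited by how many arrays there are.

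Here the log2 median foreground intensity of 43376 non-control spots was quantile normalized, with no background subtracted. Outlier marks removed 1774 spots, spots of a probe were averaged, and 40982 probes with at least 3 unmarked arrays per group were fitted with limma 3.58.1 (R 4.3.3) in a model of the 4 conditions (12 residual and 1.88 prior degrees of freedom), with 2-sided moderated tests and Benjamini-Hochberg adjustment over all probes. The threshold was a nominal p under 0.01, as in the methods of the study, with the adjusted p beside it. Slide sets were compared with condition in the model. Exact permutation was not used, its smallest p for groups of 4 being 0.0286. Replicates came from separate experiments, per the study's methods.

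The genes, the lists of pathway genes and markers, and the comparisons were chosen with earlier results of these data known. Genes described with every array are those called in a comparison of treatments and the 8 of largest change for both mixtures among those well above background on all arrays. TAP2, OASL, ISG15 and the genes called between slides were named after their values were seen. One gene of the pathway lists and one of the marker lists are not reported here. Probe names are those of the array, and 12 members had 2 probes. For promoters, 33 members were matched to RefSeq by accession and IFI27 by symbol, with the first of several entries of a gene taken.

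Replicate numbers were checked as pairs by correlating the arrays' deviations from their group means. For PT-G and MED-CTL the correlations were 0.558, 0.395, 0.857 and 0.679 and for p31-43 and MED-CTL 0.306, 0.262, 0.653 and 0.707. In runs 1 and 2 they were 0.628 and 0.723 for PT-G and MED-CTL, and 0.538 and 0.686 for p31-43 and MED-CTL. The run thus paired MED-CTL replicates 1 and 2 more closely than their replicate numbers did. Alternatives tried were other background corrections, scalings and sources of values, a filter on dim probes, marked spots kept, the mean of all probes of a gene, array weights, only the groups compared, blocks for replicate number, run, slide and slide set, and leaving out each array. The model was tested on simulated data.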

Additional observations from a re-analysis of the deposited data

Results flagged for a closer look

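For 6 of 68 groups of 4 arrays, 1 array lay far from the other 3, with a gap to its nearest neighbour beyond the critical ratio of Dixon's test. Chance gives about 1 such group in 20. IFIT1 was 8.23 on MED-CTL replicate 3, where the next array was at 7.61, and 7.30 on PT-G replicate 4, where the next was at 7.50. IFIT5 was 9.12 on PT-G replicate 3 against 8.75 for the next array. IRF2 was 7.92 on MED-CTL replicate 2 against 8.25. IRF3 was 10.61 on MED-CTL replicate 3 against 11.31, and 10.82 on PT-G replicate 3 against 11.69. The 4 values on replicate 3 come from arrays of the same slide and run.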

How the results depend on the processing

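The number of genes with a nominal p under 0.01 depended on the settings more than the direction of single genes did. For p31-43 against MED-CTL it was 0 in all 29 settings. For PT against MED-CTL (3 genes) it stayed at 3 with the background-subtracted signal, where TAP2 took the place of ISG20, and became 1 with the filter on dim probes, 7 with the run and 7 with the slide as a block. ISG20 also lost the PT call with the normexp background correction, the deposited log2 values and array weights. IFIT2 lost it with median scaling and with the mean of all probes of a gene. For PT-G against MED-CTL (1 gene) it became 4 with the replicate number, 5 with the run, 5 with the slide and 2 with the slide set as a block, 4 with array weights, 2 with the mean of all probes of a gene, and 1 to 2 when 1 array was left out (2 without MED-CTL replicate 3 or without PT-G replicate 3). For PT-G against PT (0 genes) it became 1, OAS2 near background, with the background-subtracted signal and with array weights, and 0 to 1 when 1 array was left out (1 without PT-G replicate 4). For both mixtures together (4 genes) it became 2 with median scaling, 2 with the filter on dim probes, 7, 9 and 12 with the replicate number, the run and the slide as a block, and 3 to 7 when 1 array was left out (7 without PT replicate 1). For the interaction with slide set (0 genes) it became 1 with a slide block and 0 to 2 when 1 array was left out (2 without PT-G replicate 3). Between slide sets (8 genes) it became 5 with the background-subtracted signal, 4 with the replicate number, 4 with the run and 4 with the slide as a random block, and 5 to 8 when 1 array was left out (5 without p31-43 replicate 1, PT-G replicate 1 or PT-G replicate 2). The highest count in any setting was 9. GBP2 passed newly with the normexp background correction and with array weights, STAT2 and PARP9 with array weights, and IRF3 with median scaling. Smaller moves of these counts are not all listed, and the cause of the moves was not tested. Blocks also raised the share of all probes called, so the counts by setting are not read as an excess of members.

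Of 1215 values of single genes under alternatives, 1051 kept direction and side of the threshold, 31 passed newly, 112 lost the call and 21 turned sign. Each of the 21 was a small difference that had not passed. With the background-subtracted signal IFI27 became −0.04 for PT-G against PT and IFIT2 −0.10 for p31-43. IFIT2 under p31-43 also became −0.02 with median scaling, −0.04 with the mean of its probes and −0.02 with a slide block, and IFIT5 under p31-43 became 0.04 with array weights. With 1 array left out, PT-G against PT lay between −0.09 and 0.11 for IFI27 and between −0.19 and 0.05 for ISG20. The p31-43 differences then lay between −0.05 and 0.19 for IFI27, −0.09 and 0.06 for IFIT2, −0.16 and 0.16 for IFIT5 and −0.02 and 0.24 for ISG20. Median scaling moved the median of all probes to −0.109 for PT against MED-CTL. For PT against MED-CTL and PT-G against PT the replicate numbers did not pair the arrays by the check used (correlations of 0.0326, 0.312, −0.00542 and 0.411, and 0.182, 0.695, 0.0492 and 0.646). By run, the correlations were 0.375, 0.62, −0.00542 and 0.411 for PT and MED-CTL, and unchanged for PT-G and PT. In run 3 the PT array was thus not paired with the MED-CTL or PT-G array by run either. The PT values with the run as a block carry this limit, those of IFIT5 and ISG20 included. Of all arrays, 10 of 16 correlated best with their own number, while 15 of 16 did so with their own run. With the replicate number as a block IFIT5, IFIT2, ISG20 and IRF3 passed for PT, and no member passed for PT-G against PT. These calls are not set against the share of all probes and are not read as an excess of members. A fit of only the groups compared was not run for both mixtures together, slide sets or the interaction, and the slide set as a block gives no value for the last 2. Signal over background limits the 11 genes not well above background on every array.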
